A study of Mus musculus with 2 samples.

Results

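The genes described here carry the unfolded protein response (UPR) and the folding of proteins in the endoplasmic reticulum (ER). They were taken as a fixed list of 32 gene symbols, and all 32 were among the 22711 genes of the deposited values. The cells were cultured, immortal mouse embryonic fibroblasts from crosses of 2 mouse strains, C57BL/6N, called B6 here, and PWK/PhJ, called PWK, and their polyadenylated RNA had been sequenced after Smart-seq2 library preparation. In the line PWK-Xi (strain label C57BL/6N X PWK/PhJ) the inactive X chromosome is the PWK copy, and in the line B6-Xi (strain label PWK/PhJ X C57BL/6N) it is the B6 copy. The lines differ in nothing else that the labels name, no agent that stresses the ER is named for either, and the sources used here do not say whether a line is 1 clone. Each line gave 1 library, so every value is that of a single library, no test was possible and no p-value is given.

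The UPR is the response of a cell to unfolded protein in the ER. Of its sensors in the ER membrane, IRE1 (gene Ern1) splices the mRNA of the transcription factor XBP1, PERK (gene Eif2ak3) phosphorylates the initiation factor eIF2 and so favours translation of ATF4, and ATF6 is itself cleaved into a transcription factor. XBP1 and ATF6 act on genes of ER chaperones and of ER-associated degradation, and ATF4 acts on genes of amino acid supply and of stress signalling. Fibroblasts secrete much collagen and other matrix protein and so use this folding machinery also without stress. Gene-level values do not separate spliced from unspliced Xbp1 mRNA and say nothing of the cleavage of ATF6 or the translation of ATF4.

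Values are FPKM (fragments adjusted for the length of the transcript and the size of the library) of the B6 and the PWK allele, and the level of a gene is their sum. In all, 12907 genes in PWK-Xi and 10127 genes in B6-Xi were above 0, and read depth is unknown. Of 14 fibroblast marker genes, 13 were above 0 in PWK-Xi and 12 in B6-Xi. Their summed level was 3247 FPKM in PWK-Xi and 13943 FPKM in B6-Xi, most of it from S100a4, and without that gene it was 926.0 FPKM in PWK-Xi and 937.6 FPKM in B6-Xi. At the minimum of 5 FPKM 13 could be compared, 4 of them higher in PWK-Xi by 2-fold or more and 4 lower. The summed levels of 7 epithelial, 5 endothelial and 6 immune markers were 1.29, 0.205 and 3.55 FPKM in PWK-Xi, against 0, 0.0476 and 1.56 FPKM in B6-Xi. Of 5 pluripotency markers, Pou5f1 had 15.1 FPKM in PWK-Xi and was listed at 0 in B6-Xi, as were all 5 there, and the other 4 lay under 0.4 FPKM in PWK-Xi. Of 5 markers of secretory cells in the files, only Sdc1 passed 1 FPKM, with 9.46 FPKM in PWK-Xi and 7.12 FPKM in B6-Xi. The part of these markers in the values below was not tested.

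The sequences that tie many of these genes to the UPR lie in their promoters, and 6 are shown because their genes had opposite differences between the lines or carry the ATF4 element. The table of RefSeq promoters (build GRCm38.p6, while the submitters' processing notes name mm9) held 1 promoter window for 27 of the 32 genes, from 250 bases before to 50 bases after the start site. It held none for Atf6, Hyou1, Manf, Ero1l and Sec61a1. The windows were searched on both strands for the ER stress response element, bound by ATF6 with NF-Y (CCAAT, 9 bases of any kind, CCACG), its second form (ATTGG, 1 base of any kind, CCACG), the ATF4 element of amino acid response genes (TGATGNAA) and the XBP1 element (TGACGTGG). Below are the 250 bases before the start site, 5′ to 3′ on the strand of the gene, with the matches to the first 3 motifs in capitals.
Hspa5 (chr2:34771840-34772089, plus strand): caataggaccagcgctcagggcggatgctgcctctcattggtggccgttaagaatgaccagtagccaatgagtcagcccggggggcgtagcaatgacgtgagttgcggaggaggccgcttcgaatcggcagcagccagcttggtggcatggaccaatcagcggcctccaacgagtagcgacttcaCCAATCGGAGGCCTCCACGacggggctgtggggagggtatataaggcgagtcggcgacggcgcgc
Hsp90b1 (chr10:86705445-86705694, minus strand): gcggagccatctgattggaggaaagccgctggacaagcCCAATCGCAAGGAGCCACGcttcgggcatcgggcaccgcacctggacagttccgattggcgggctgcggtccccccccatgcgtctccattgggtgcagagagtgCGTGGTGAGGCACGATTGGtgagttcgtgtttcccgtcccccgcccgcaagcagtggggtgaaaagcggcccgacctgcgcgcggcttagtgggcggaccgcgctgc
Calr (chr8:84846932-84847181, minus strand): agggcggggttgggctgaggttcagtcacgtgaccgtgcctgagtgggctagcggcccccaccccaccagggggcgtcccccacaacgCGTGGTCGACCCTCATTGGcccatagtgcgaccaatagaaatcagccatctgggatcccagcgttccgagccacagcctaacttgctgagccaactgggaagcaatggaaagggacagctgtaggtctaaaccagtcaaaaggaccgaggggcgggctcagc
Herpud1 (chr8:94386179-94386428, plus strand): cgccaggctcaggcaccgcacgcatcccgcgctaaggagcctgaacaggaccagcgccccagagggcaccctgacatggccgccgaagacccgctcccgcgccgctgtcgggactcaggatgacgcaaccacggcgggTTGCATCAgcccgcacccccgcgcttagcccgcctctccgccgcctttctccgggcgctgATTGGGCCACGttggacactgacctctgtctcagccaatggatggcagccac
Asns (chr6:7693210-7693459, minus strand): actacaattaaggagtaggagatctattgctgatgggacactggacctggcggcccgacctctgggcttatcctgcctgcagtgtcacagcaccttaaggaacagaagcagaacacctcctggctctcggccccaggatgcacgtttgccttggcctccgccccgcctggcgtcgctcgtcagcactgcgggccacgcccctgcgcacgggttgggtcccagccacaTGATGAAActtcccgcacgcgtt
Chac1 (chr2:119350992-119351241, plus strand): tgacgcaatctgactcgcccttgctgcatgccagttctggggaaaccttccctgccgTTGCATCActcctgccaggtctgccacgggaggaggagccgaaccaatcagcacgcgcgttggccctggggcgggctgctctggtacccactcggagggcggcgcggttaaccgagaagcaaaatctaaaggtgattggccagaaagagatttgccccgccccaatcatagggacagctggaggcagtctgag

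The first form was found in 8 of the 27 windows and in 0.119% of all 32851 promoter windows of the table. The genes were Hspa5, Hsp90b1 (with 2 matches), Calr, Canx, Pdia6, Dnajc3, Creld2 and Syvn1. The second form was found in Herpud1 and Dnajb11, against 0.0365% of all windows. The ATF4 element was found in Asns, Chac1, Trib3 and Herpud1, 4 of 27, against 3.97% of all windows. In Trib3 it lay after the start site, outside the printed stretch of 250 bases. The XBP1 element was found in none of the 27 and in 0.676% of all windows. No 2 matches overlapped. A match describes these letters in this window and is not by itself a site.

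All 3 sensors were scarce. Ern1, the gene of IRE1, had 0.162 FPKM in PWK-Xi and 0.245 FPKM in B6-Xi, all of it from the B6 allele. Eif2ak3, the gene of PERK, had 0.725 FPKM in PWK-Xi and 1.72 FPKM in B6-Xi. Atf6 had 3.716 FPKM in PWK-Xi and 3.996 FPKM in B6-Xi. None of the 3 reached the 5 FPKM in either line that the comparison of levels required, so no direction is given for them.

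The genes of the 3 transcription factors were close in level between the lines. Atf4 had 49.3 FPKM in PWK-Xi (24.2 from B6, 25.2 from PWK) and 51.3 FPKM in B6-Xi (23.1 from B6, 28.2 from PWK). Ddit3, the gene of CHOP, a factor linked to cell death under lasting stress, had 28.1 FPKM in PWK-Xi and 23.2 FPKM in B6-Xi. Xbp1 had 19.04 FPKM in PWK-Xi and 22.1 FPKM in B6-Xi. The log2 difference of the summed level, PWK-Xi over B6-Xi with 1 FPKM added to each, had a median of 0.19 over all genes at 5 FPKM or more in either line and above 0 in both, and log2 differences of totals below are given relative to it. On that scale Atf4 lay at -0.25, Ddit3 at 0.07 and Xbp1 at -0.40. In bulk RNA, fewer expressing cells and less RNA per cell cannot be told apart.

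The totals of Xbp1 were close, but the deposited values came from opposite alleles in the lines. In PWK-Xi all 19.04 FPKM came from the B6 allele and the PWK allele was listed at 0, while in B6-Xi all 22.1 FPKM came from the PWK allele and the B6 allele was listed at 0. In both lines the allele with the reads was that of the strain whose X is active, although Xbp1 lies on chromosome 11. It was also that of the strain named first in the strain label. With 1 library per line these cannot be told apart, nor from separate events in each line, and no cause was tested. The B6 share (the B6 allele over both alleles) of Xbp1 was 100% in PWK-Xi and 0% in B6-Xi. The number of reads that told its alleles apart is unknown, so both shares may rest on few reads. Its 20 nearest expressed neighbours on the chromosome, 10 on each side, had a median B6 share of 53.8% in PWK-Xi and 45.3% in B6-Xi. Their shares ran from 30.8 to 92.1% in PWK-Xi and from 0 to 92.3% in B6-Xi. Of the adjoining genes at 1 FPKM or more in both lines, Znrf3, just before Xbp1, had 69.2% in PWK-Xi and 0% in B6-Xi, and Mrps24, just after it, had 45.3% in PWK-Xi and 42.0% in B6-Xi. Among 7441 autosomal genes at 1 FPKM or more in both lines, 22 (0.296%) had at most 10% in 1 line and at least 90% in the other, and Xbp1 was the only one of the 28 listed genes with such values.

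Of the targets of ATF4, Asns reached 5 FPKM in both lines and was higher in PWK-Xi, while Chac1 and Trib3 reached it in PWK-Xi alone and so could be compared only with a higher value there. Asns, which makes asparagine, had 21.4 FPKM in PWK-Xi (12.6 from B6, 8.73 from PWK) and 12.5 FPKM in B6-Xi (4.84 from B6, 7.61 from PWK). Chac1, which degrades glutathione, had 7.35 FPKM in PWK-Xi (4.27 from B6, 3.07 from PWK) and 3.38 FPKM in B6-Xi (2.41 from B6, 0.965 from PWK). Trib3, a pseudokinase gene that restrains ATF4 signalling, had 11.2 FPKM in PWK-Xi (7.47 from B6, 3.73 from PWK) and was listed at 0 for both alleles in B6-Xi. All 3 carry the ATF4 element described above. Of the genes at 5 FPKM or more in PWK-Xi, 4.76% had a 0 for both alleles in B6-Xi, so such a 0 is not rare and no fold is given against it. Ppp1r15a, the gene of the eIF2 phosphatase subunit GADD34, stayed under 5 FPKM, with 4.40 FPKM in PWK-Xi and 3.86 FPKM in B6-Xi. The relative log2 differences were 0.54 for Asns and 0.74 for Chac1. Summed over all 4, the level was 44.3 FPKM in PWK-Xi and 19.7 FPKM in B6-Xi.

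**Figure D1:**
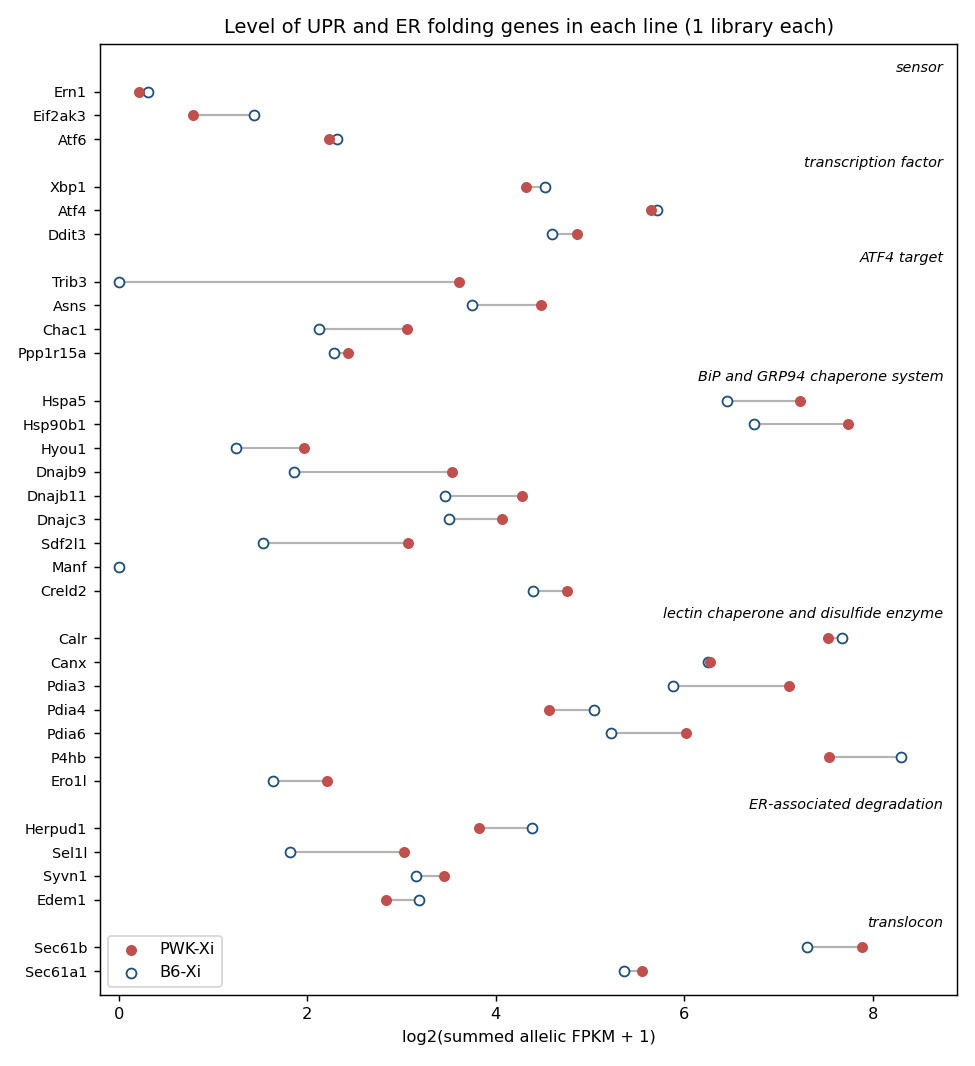
Level of each of the 32 genes, as log2 of the summed allelic FPKM plus 1, with filled points for PWK-Xi, open points for B6-Xi and genes grouped by role. The ATF4 targets and the BiP and GRP94 group lie to the right in PWK-Xi, the transcription factors nearly coincide, and both points of Manf lie at 0.

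Of the luminal chaperone system around BiP and GRP94, 5 genes reached 5 FPKM in both lines (Hspa5, Hsp90b1, Dnajb11, Dnajc3 and Creld2), and each had its higher value in PWK-Xi, against 58.2% of all genes at that level in both lines. That count depends on how the ER chaperones were divided into groups. Of the 6 comparable lectin chaperone and disulfide enzyme genes described below, 3 were higher in PWK-Xi and 3 lower before the shift. Dnajb9 and Sdf2l1 reached 5 FPKM in PWK-Xi alone, so their direction follows from that minimum. Hspa5, the gene of BiP, the main Hsp70 of the ER, had 148.9 FPKM in PWK-Xi (74.2 from B6, 74.8 from PWK) and 87.0 FPKM in B6-Xi (58.3 from B6, 28.8 from PWK), a 1.71-fold higher level. Hsp90b1, the gene of the ER Hsp90 GRP94, had 213.1 FPKM in PWK-Xi (104.3 from B6, 108.8 from PWK) and 106.4 FPKM in B6-Xi (74.0 from B6, 32.4 from PWK). Both genes carry the ER stress response element, and for both most of the difference lay in the PWK allele. Of the BiP cochaperones, Dnajb9 had 10.6 FPKM in PWK-Xi and 2.63 FPKM in B6-Xi. Dnajb11 had 18.4 FPKM in PWK-Xi and 10.0 FPKM in B6-Xi, and Dnajc3 had 15.7 FPKM in PWK-Xi and 10.3 FPKM in B6-Xi. Dnajb11 and Dnajc3 thus had their higher value in PWK-Xi too, while Dnajb9 could be compared only with a higher value there. Sdf2l1, which works with DnaJ proteins of the ER, had 7.42 FPKM in PWK-Xi and 1.89 FPKM in B6-Xi, 3.93-fold higher. Creld2, an ER stress-inducible gene, had 26.02 FPKM in PWK-Xi and 20.1 FPKM in B6-Xi. Hyou1, the gene of the large ER Hsp70 GRP170, stayed under 5 FPKM, with 2.91 FPKM in PWK-Xi and 1.37 FPKM in B6-Xi. Manf, a secreted ER stress protein gene, was listed at 0 for both alleles in both lines. So were Ddost, Stt3b, Ssr4 and Fkbp2 among the other ER genes read below. How such a 0 arose is not known, and it is not read as absence of the mRNA. The relative log2 differences of the 5 genes at 5 FPKM in both lines ran from 0.16 for Creld2 to 0.80 for Hsp90b1, and the summed level of the 9 genes was 443.2 FPKM in PWK-Xi and 239.8 FPKM in B6-Xi.

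The lectin chaperones and disulfide enzymes did not share a direction. Pdia3, the oxidoreductase that works with calnexin and calreticulin, had 137.3 FPKM in PWK-Xi (72.5 from B6, 64.8 from PWK) and 57.9 FPKM in B6-Xi (36.3 from B6, 21.6 from PWK), 2.37-fold higher. Its lectin partners were close in level. Calr, the gene of calreticulin, had 183.6 FPKM in PWK-Xi and 202.9 FPKM in B6-Xi, and Canx, the gene of calnexin, had 76.6 FPKM in PWK-Xi and 75.3 FPKM in B6-Xi. Calr and Canx hold the same element in their promoter windows as Hspa5. P4hb, the gene of protein disulfide isomerase, which is also a subunit of collagen prolyl hydroxylase, was the most abundant of the 32 genes in B6-Xi and lower in PWK-Xi, with 184.3 FPKM in PWK-Xi (96.3 from B6, 88.0 from PWK) and 315.3 FPKM in B6-Xi (52.1 from B6, 263.3 from PWK). Pdia4 had 22.7 FPKM in PWK-Xi and was 1.41-fold higher in B6-Xi, and Pdia6 had 64.1 FPKM in PWK-Xi and 36.4 FPKM in B6-Xi. Ero1l, the oxidase gene that recharges disulfide isomerases, stayed under 5 FPKM, with 3.63 FPKM in PWK-Xi and 2.104 FPKM in B6-Xi. The 6 comparable genes spanned relative log2 differences from -0.97 for P4hb to 1.04 for Pdia3, and their sum with Ero1l was 672.2 FPKM in PWK-Xi and 722.0 FPKM in B6-Xi.

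The genes of ER-associated degradation were divided as well. Herpud1, which helps to assemble the retrotranslocation complex and carries both the second form of the ER stress response element and an ATF4 element, had 13.2 FPKM in PWK-Xi (6.81 from B6, 6.40 from PWK) and 19.9 FPKM in B6-Xi (11.1 from B6, 8.81 from PWK). Edem1, a mannosidase-like gene that directs glycoproteins to degradation, had 6.17 FPKM in PWK-Xi and 8.13 FPKM in B6-Xi. Sel1l and Syvn1 encode the scaffold and the ubiquitin ligase of 1 complex. Sel1l had 7.14 FPKM in PWK-Xi and 2.54 FPKM in B6-Xi, and Syvn1 had 9.98 FPKM in PWK-Xi and 7.90 FPKM in B6-Xi. Of the translocon genes, Sec61b had 236.3 FPKM in PWK-Xi, the highest level of the 32 genes there, and 157.1 FPKM in B6-Xi. The channel gene Sec61a1 had 46.0 FPKM in PWK-Xi and 40.2 FPKM in B6-Xi, a relative log2 difference of -0.01.

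Counted over all roles, 25 of the 32 genes reached 5 FPKM in either line. Of these, 5 were at least 2-fold higher in PWK-Xi (Trib3, Dnajb9, Sdf2l1, Pdia3 and Sel1l), 0 were at least 2-fold lower and 20 lay within 2-fold. Over all 5490 genes compared in the same way, 17.8% were higher by 2-fold or more and 5.83% lower, so 5 of 25 is close to the share among all genes. Of the 5 genes, Trib3, Dnajb9, Sdf2l1 and Sel1l reached 5 FPKM in PWK-Xi alone, as did Chac1, and none of the 25 reached it in B6-Xi alone, so these genes could enter only with a higher value in PWK-Xi. Of the 20 genes at 5 FPKM in both lines, Pdia3 was the 1 that was 2-fold higher, against 7.98% of all genes so restricted. Just inside the threshold was Sel1l, with a log2 difference of 1.202 before the shift by the median, and just outside was Hsp90b1 with 0.996. The median relative log2 difference of these 20 genes was 0.09, against -0.08 for all genes at 5 FPKM in both lines. Higher values in PWK-Xi, before the shift, were found for 13 of the 20 genes, against 58.2% of all genes at 5 FPKM in both lines. They were found for 18 of the 25, against 62.1% of the 5490. All 5 of the genes past 2-fold lie on chromosomes whose median B6 share lay over 5 percentage points off the median of all autosomes in either line. Of the 25 genes, 15 lie on such chromosomes, where 21% of all genes were 2-fold higher. Of the 10 on the other autosomes 0 were at least 2-fold higher, against 13.8% of all genes there. With at least 20 FPKM in either line, Pdia3 alone of 15 genes was past 2-fold. The share of all genes past 2-fold at that minimum was not computed, so this count has no background beside it.

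A B6 share could be given for the 28 genes that reached 1 FPKM in both lines. In PWK-Xi the shares had a median of 51.9%, ran from 34.6% for Hyou1 to 71.0% for Atf6 apart from Xbp1, and 20 of 28 lay between 40 and 60%. In B6-Xi the median was 45.8%, the shares ran from 0% to 72.6% for Edem1, and 13 lay between 40 and 60%. Xbp1 was the 1 gene with at least 90% from B6 in PWK-Xi, against 1.48% of autosomal genes, and 5 genes had at most 10% from B6 in B6-Xi, against 8.67%. The autosomal medians over 7441 genes were 52.7% in PWK-Xi and 50.0% in B6-Xi. The lines were at least 20 points apart for 11 of the 28 genes, against 34.6% of all autosomal genes. In 9 of them the B6 share was higher in PWK-Xi, against 21.2% of all, and in 2 (Hsp90b1 and Hyou1) it was lower there, against 13.5%. Shares moved in coarse steps in B6-Xi. They equalled a simple fraction, with a denominator up to 10 and to within 0.001 points, for 1 of the 28 genes in PWK-Xi and for 11 in B6-Xi, and for 6.29% of autosomal genes in PWK-Xi and 43.9% in B6-Xi. The 1 gene in PWK-Xi was Xbp1. It was also among the 11 in B6-Xi, as was Calr, with a share of 50% at 202.9 FPKM.

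4 genes had a B6 share of 0% in B6-Xi and lie where the neighbours had the same. These were Dnajb9, Pdia6 and Sel1l on chromosome 12 and Sec61b on chromosome 4, and the median share of their 20 neighbours was 0% in B6-Xi for each. In PWK-Xi the 4 genes had B6 shares of 49.7%, 49.5%, 62.4% and 50.6%. For these genes the PWK allele alone gave a smaller or opposite difference. Pdia6 had 32.4 FPKM from PWK in PWK-Xi and 36.4 FPKM from PWK in B6-Xi, while its B6 allele had 31.7 FPKM in PWK-Xi and was listed at 0 in B6-Xi. Sec61b had 116.7 FPKM from PWK in PWK-Xi and 157.1 FPKM from PWK in B6-Xi, while its B6 allele had 119.6 FPKM in PWK-Xi and was listed at 0 in B6-Xi. The PWK allele of Sel1l was nearly level, at 2.68 FPKM in PWK-Xi and 2.54 FPKM in B6-Xi. That of Dnajb9 had 5.34 FPKM in PWK-Xi and 2.63 FPKM in B6-Xi.

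**Figure D2:**
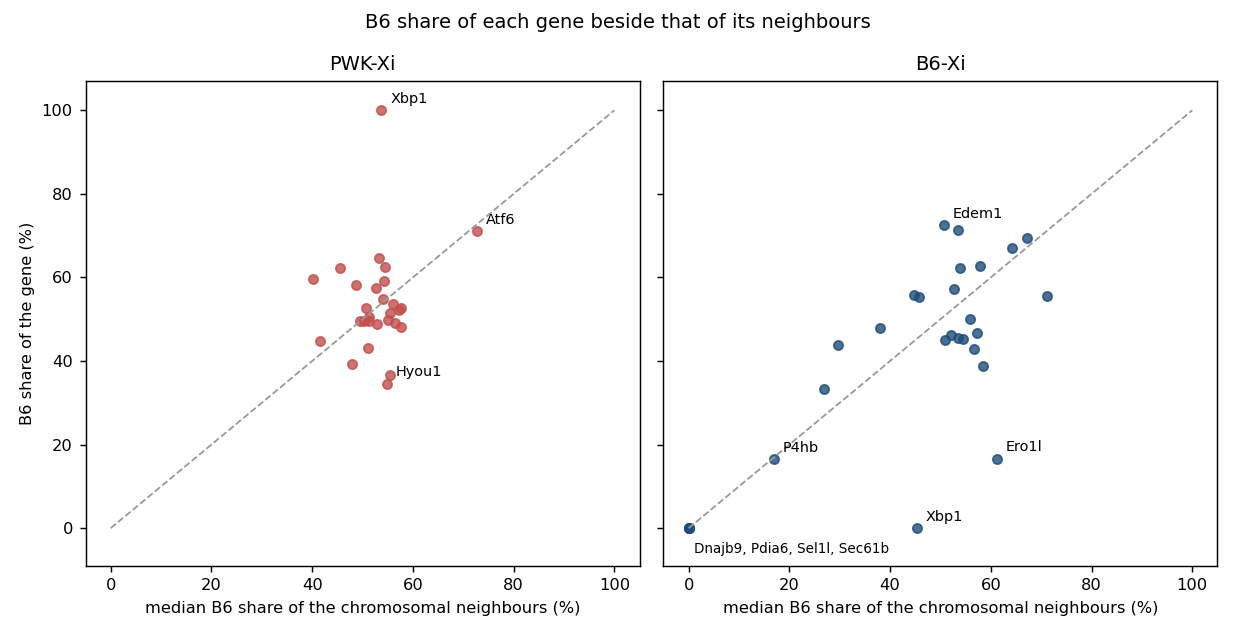
B6 share of each of the 28 genes that reached 1 FPKM in both lines (vertical axis, percent) against the median B6 share of its 20 nearest expressed neighbours (horizontal axis, percent), in PWK-Xi and in B6-Xi, with a dashed line where both are equal. Within 10 points of the line lie 22 genes in PWK-Xi and 18 in B6-Xi, 4 of those in B6-Xi at 0%, while Xbp1 lies far from it in both lines, at 100% in PWK-Xi and 0% in B6-Xi, and Ero1l does in B6-Xi.

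Most of the other shares also lay near those of their neighbours. The distance was at most 10 points for 22 of the 28 genes in PWK-Xi and 18 in B6-Xi, against 64.6% and 50.1% of autosomal genes. P4hb, near the end of chromosome 11, had a B6 share of 52.2% in PWK-Xi and 16.5% in B6-Xi, with neighbours at 57.3% in PWK-Xi and 16.9% in B6-Xi. Atf6, on chromosome 1, had 71.0% in PWK-Xi and 46.2% in B6-Xi, with neighbours at 72.8% in PWK-Xi and 52.2% in B6-Xi. Hspa5 had 49.8% in PWK-Xi and 66.9% in B6-Xi, with neighbours at 55.1% in PWK-Xi and 64.2% in B6-Xi. Hsp90b1 had 49.0% in PWK-Xi and 69.5% in B6-Xi, with neighbours at 53.0% in PWK-Xi and 67.2% in B6-Xi. Over the 28 genes the share and the median of the neighbours had a Pearson r of 0.17 and a Spearman rho of 0.02 in PWK-Xi, and of 0.77 and 0.56 in B6-Xi. These describe genes of 1 library whose neighbours share chromosome segments. Beside Xbp1, the gene 40 or more points from its neighbours was Ero1l in B6-Xi, with 16.7% against 61.3% at 2.104 FPKM. In PWK-Xi Xbp1 was the only one, against 1.88% of autosomal genes in PWK-Xi and 7.88% in B6-Xi.

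**Figure D3:**
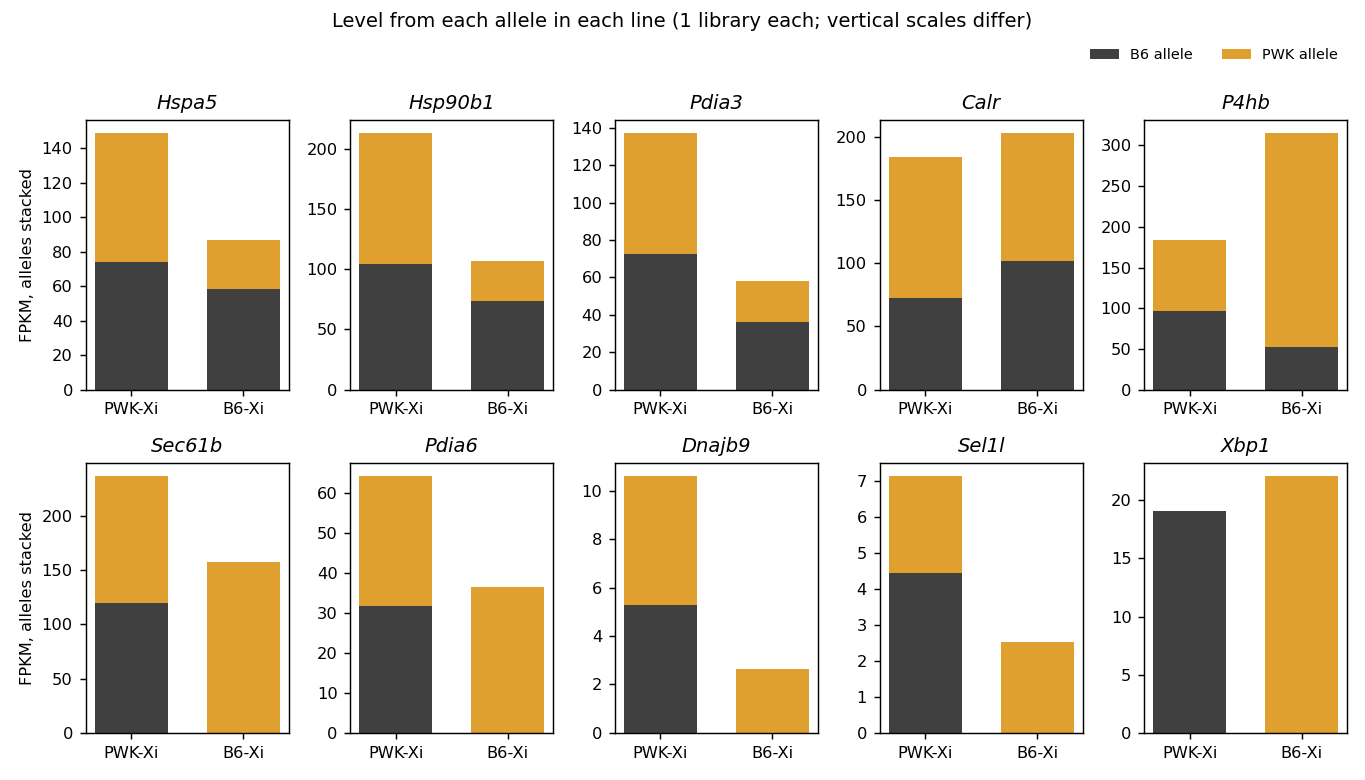
FPKM of the B6 allele (dark) and the PWK allele (light), stacked, in PWK-Xi and B6-Xi for 10 of the genes, with a scale of its own for each gene. Sec61b, Pdia6, Dnajb9 and Sel1l have no dark part in B6-Xi, Xbp1 has only the dark part in PWK-Xi and only the light part in B6-Xi, and the light part of P4hb is 263.3 FPKM in B6-Xi.

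Differences in level moved with those of the neighbours as well. The neighbours' median log2 difference, not shifted, was 1.02 for Dnajb9, 0.85 for Sel1l, 0.80 for Pdia6 and 0.78 for Sec61b, beside 1.68, 1.202, 0.80 and 0.59 for the genes themselves. For P4hb it was -0.65 beside -0.77, and for Hsp90b1 0.56 beside 0.996. For Hspa5 the neighbours lay at -0.09 beside 0.77, for Pdia3 at 0.24 beside 1.23, and for Sdf2l1 at 0.27 beside 1.54. Over the 25 genes the 2 differences had a Pearson r of 0.46 and a Spearman rho of 0.59. After subtraction of the neighbours' median, 2 of the 25 genes were at least 2-fold higher in PWK-Xi (Trib3 and Sdf2l1, with Pdia3 just under at 0.99), against 12.7% of all genes. Of the BiP and GRP94 group, the 5 genes at 5 FPKM in both lines lay above their neighbours, as did Asns. Of the 6 comparable lectin chaperone and disulfide enzyme genes, 3 lay above theirs. Dnajb9, Sdf2l1, Trib3 and Chac1 lay above their neighbours too, but they reached 5 FPKM in PWK-Xi alone, which favours a higher value there. Over the 25 genes, of which 5 reached 5 FPKM in PWK-Xi alone, 19 lay above their neighbours, against 54.2% of all genes. With the B6 allele alone 8 of the 25 genes were at least 2-fold higher in PWK-Xi, against 25.6% of all genes. With the PWK allele alone 5 were, against 17.3%, and Xbp1 and P4hb were at least 2-fold lower, against 12.2%.

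Genes with a match in the promoter did not all have the same direction. The 10 genes with either form of the ER stress response element all reached 5 FPKM in both lines. Before the shift by the median, 8 of them had the higher level in PWK-Xi, against 58.2% of all genes at that level in both lines. Calr and Herpud1 had the lower. Relative to that median Canx was lower too, at -0.17, which leaves 7 higher and 3 lower. The 5 genes of the BiP and GRP94 group at 5 FPKM in both lines are among these 10. This count is therefore not separate from that of the group. The unshifted log2 differences of the 8 with the first form ran from -0.14 for Calr to 0.996 for Hsp90b1, and none of the 10 passed 2-fold on this scale. Of the 4 with the ATF4 element, Asns was higher in PWK-Xi and Herpud1 was lower, at an unshifted -0.56. The other genes, Trib3 and Chac1, reached 5 FPKM in PWK-Xi alone and so could be compared only with a higher value there.

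Other genes of the secretory pathway were read from 8 lists with 165 genes, of which 120 reached 5 FPKM in either line. Of these 17 were at least 2-fold higher in PWK-Xi and 1 was at least 2-fold lower, which is 14.2% and 0.833% beside the 17.8% and 5.83% of all genes. Their median relative log2 difference was 0.02. As with the listed genes, those at 5 FPKM in PWK-Xi alone could enter only with a higher value there. Other targets of ATF4 had 3 of 15 genes at least 2-fold higher and 0 lower, with a median of 0.21. Of the 3, Gdf15 and Ddit4 reached 5 FPKM in PWK-Xi alone. The unshifted median of these targets was 0.41, and 0.069 less the neighbours. Psph, of serine synthesis, had 54.9 FPKM in PWK-Xi and 8.10 FPKM in B6-Xi, but Psat1, of the same pathway, had 36.5 FPKM in PWK-Xi and 43.2 FPKM in B6-Xi. The translational repressor gene Eif4ebp1 had 87.4 FPKM in PWK-Xi and 73.4 FPKM in B6-Xi. Of the other UPR regulators 3 of 9 were at least 2-fold higher, with a median of 0.13. Cebpb, a transcription factor gene, had 30.9 FPKM in PWK-Xi and 8.03 FPKM in B6-Xi, and Eif2s1, the gene of the eIF2 subunit that PERK phosphorylates, had 32.8 FPKM in PWK-Xi and 13.9 FPKM in B6-Xi. Eif2s1 lies on chromosome 12. Tmbim6, a cell death suppressor gene of the ER, had 49.5 FPKM in PWK-Xi and 47.4 FPKM in B6-Xi.

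Genes of folding and degradation outside the 32 made up 3 of the lists. Other chaperones and prolyl isomerases had 2 of 24 genes at least 2-fold higher and 0 lower, with a median of -0.28. The cyclophilin gene Ppib had 281.9 FPKM in PWK-Xi and 300.1 FPKM in B6-Xi, and the calcium-binding protein genes Calu and Rcn2 had 83.3 and 39.3 FPKM in PWK-Xi, against 69.3 and 18.9 FPKM in B6-Xi. Other genes of ER-associated degradation had 1 of 18 at least 2-fold higher and 1 lower, with a median of -0.47, the lowest of the 8 lists. Selk had 91.7 FPKM in PWK-Xi and 98.1 FPKM in B6-Xi, and Vimp had 28.5 FPKM in PWK-Xi and 46.4 FPKM in B6-Xi, both being selenoprotein genes of the ER membrane. Other disulfide enzymes had 2 of 10 at least 2-fold higher and 0 lower, with a median of 0.48, although the 2 most abundant were not. Less the median of the neighbours, 0 of the 10 were at least 2-fold higher and 1 was at least 2-fold lower. The X-linked peroxiredoxin gene Prdx4 had 124.6 FPKM in PWK-Xi and 183.7 FPKM in B6-Xi, and Erp29 had 44.0 FPKM in PWK-Xi and 65.8 FPKM in B6-Xi.

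Entry to and exit from the ER stayed close to all genes. The oligosaccharyltransferase genes, which attach N-glycans, had 1 of 8 at least 2-fold higher and 0 lower, with a median of 0.08. That gene was the catalytic subunit gene Stt3a, with 46.7 FPKM in PWK-Xi and 19.5 FPKM in B6-Xi, while Dad1 and Krtcap2 had 225.1 and 257.4 FPKM in PWK-Xi and 247.7 and 200.1 FPKM in B6-Xi. Translocation and signal peptidase genes had 3 of 20 at least 2-fold higher and 0 lower, with a median of 0.08. The signal recognition particle receptor gene Srpr had 21.0 FPKM in PWK-Xi and 8.72 FPKM in B6-Xi, Sec61g had 149.2 FPKM in PWK-Xi and 226.9 FPKM in B6-Xi, and the signal peptidase subunit gene Spcs1 had 155.9 FPKM in PWK-Xi and 156.0 FPKM in B6-Xi. COPII export genes had 2 of 16 at least 2-fold higher and 0 lower, with a median of -0.01. These were the cargo receptor genes Tmed2, with 80.8 FPKM in PWK-Xi and 38.0 FPKM in B6-Xi, and Tmed10, with 35.5 FPKM in PWK-Xi and 16.9 FPKM in B6-Xi. The coat gene Sec13 had 51.5 FPKM in PWK-Xi and 67.3 FPKM in B6-Xi.

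**Figure D4:**
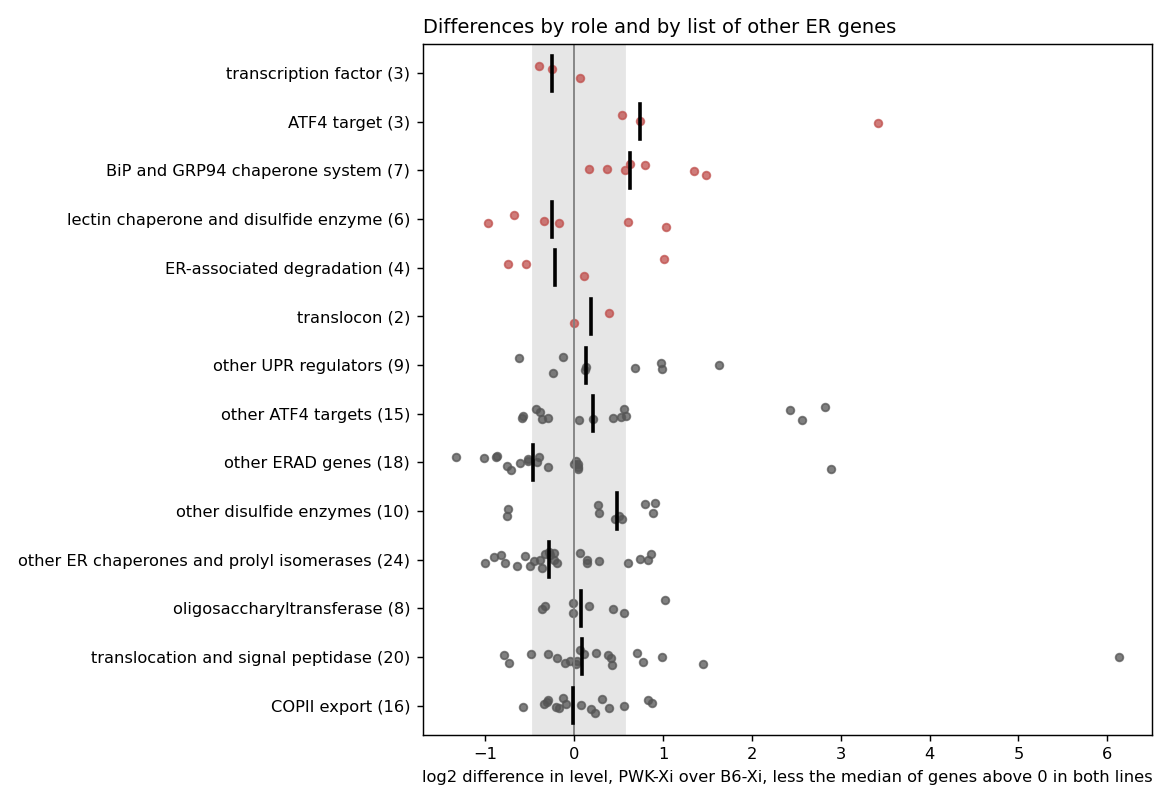
Log2 difference in level (PWK-Xi over B6-Xi, 1 FPKM added, less the median of genes above 0 in both lines) of each gene that reached 5 FPKM in either line, by role for the listed genes (upper 6 groups) and by list for other ER genes (lower 8), with the number of genes in brackets. Black bars are medians, from -0.47 for other ERAD genes (ER-associated degradation) to 0.74 for the ATF4 targets. The latter is the value of Chac1, which like Trib3 reached 5 FPKM in PWK-Xi alone. The grey band holds the middle of all 5490 genes, from -0.47 to 0.58.

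Some values are uncertain for reasons of annotation. Exons of another gene overlap those of Ddit3 (Mars), Pdia6 (Atp6v1c2), Syvn1 (Mrpl49), Hsp90b1 (1810014B01Rik), Sec61a1 (Gm44170), Eif2ak3 (Gm43292) and Manf (Dcaf1) on the opposite strand in the GENCODE annotation of GRCm38, by 50 to 388 bases in 1 exon. Whether strand was kept is not in the labels, so such reads cannot be told apart. Calr has a named pseudogene, Calr-ps, whose reads may not be separable.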

How the data were processed

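RNA of 2 immortal fibroblast lines, PWK-Xi and B6-Xi, was measured in 1 library each, and groups were taken from the titles. Per the labels' protocols, polyadenylated RNA was captured with oligo-dT primers and prepared with Smart-seq2. Tools named in the submitters' processing notes are StringTie 2.1.1, HISAT2 2.2.0 and Trim Galore 0.6.4, and the build named is mm9. The sources used here do not give how a read was assigned to B6 or PWK. The authors deposited FPKM per gene and allele, per the file headers, so depth is unknown and no interval is given.

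Totals are sums of both alleles. Log2 differences used a pseudocount of 1 FPKM, which understates differences of scarce genes, and at least 5 FPKM in either line. Shares used at least 1 FPKM in both lines. Gene order came from GENCODE M21 and RefSeq symbols (82 of 22711 genes unmatched), later than mm9, and gave the 10 nearest expressed genes on each side. All 32 listed genes are named. Of each list of other genes, the 2 most abundant are named, and up to 2 per direction with the largest differences past 2-fold among those with at least 20 FPKM and above 0 in both lines. Znrf3, Mrps24, Gdf15, Ddit4, Ddost, Stt3b, Ssr4, Fkbp2 and the genes with overlapping exons were named after their values were seen. The listed genes, the lists and the motifs were chosen with earlier results of these data known. Alternative pseudocounts, filters, scalings, share thresholds and neighbour numbers were tried. The minimum of 5 FPKM in both lines, the subtraction of neighbours, the single alleles and the leaving out of genes whose neighbours are near 0% were added after seeing the data. Python 3.11.15, numpy 2.4.6, pandas 2.3.3, biopython 1.88 and matplotlib 3.10.9 were used, and the computations were tested on simulated data.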

Additional observations from a re-analysis of the deposited data

How the results depend on the processing

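No paired analysis was possible because there was 1 library per line and no test. For the 25 listed genes the unshifted median log2 difference was 0.56, with 5 genes at least 2-fold higher and 0 lower in PWK-Xi. The median was 0.44 with a pseudocount of 5 FPKM, 0.46 with a minimum of 1 FPKM, 0.26 with 20 FPKM, 0.33 with no minimum, 0.37 with medians and 0.35 with upper quartiles made equal, 0.28 for the 20 genes at 5 FPKM in both lines, 0.067 without chromosomes of skewed share (0.09 for all genes there), 0.29 less the neighbours and 0.18 for the PWK allele alone. The count of genes 2-fold higher was 7 with a pseudocount of 0.1 FPKM, 3 with 5 FPKM, 6 of 24 with none, 1 of 20 at 5 FPKM in both lines, 1 of 15 at 20 FPKM, 0 of 10 without skewed chromosomes, 2 less the neighbours and 8 for the B6 allele alone, and the PWK allele alone had 2 genes 2-fold lower. Of all genes, 7.98% were 2-fold higher at 5 FPKM in both lines, 13.8% on autosomes without a skewed share, 12.7% less the neighbours and 25.6% for the B6 allele alone. For the PWK allele alone 12.2% were 2-fold lower. The share of all genes was not computed with other pseudocounts, with none or at 20 FPKM. Those counts have no background beside them. The low count on the other chromosomes comes with fewer genes, and causes were not tested further. Of 199 values of single genes under pseudocounts, scalings, neighbours and single alleles, 130 moved by more than 0.1 and 18 changed sign, none of a gene past 2-fold. The sign changed for Canx and Sec61a1 under both scalings, for Atf4, Sec61b and Xbp1 less the neighbours, for Atf4, P4hb, Syvn1 and Xbp1 with the B6 allele alone, and for Calr, Canx, Ddit3, Edem1, Pdia6, Sec61a1 and Sec61b with the PWK allele alone. For the 120 genes of the other lists (median 0.21, 17 higher, 1 lower), 9 of 68 were higher and 0 lower at 20 FPKM, and less the neighbours the median was 0.010 with 7 higher and 2 lower. The lines lay at least 20 points apart in B6 share for 11 of 28 genes, for 6 of 20 at 5 FPKM, for 4 of 13 at 20 FPKM, and for 7 of 24 without genes whose neighbours were near 0%. The count was 19 at 10 points and 5 at 40 points. Only the 11 of 28 has a background, 34.6% of autosomal genes, since the share of all genes was not computed for the other settings. Distances of shares from 5 or 20 neighbours on each side stayed within 5 points or 1.5 times of those from 10. Depth is unknown, so differences of scarce genes such as the sensors, Hyou1 and Ero1l could not be weighed.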
